A study of Mus musculus with 8 samples.

Results

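Polyamines are small positively charged molecules that bind RNA and DNA and are needed for cell growth and translation. Odc1 (ornithine decarboxylase) makes putrescine from ornithine, and this step is the classical control point of the pathway. The antizymes Oaz1 and Oaz2 bind Odc1 and send it to the proteasome, and the antizyme inhibitor Azin1 holds antizyme away from it. Amd1 supplies the aminopropyl donor by decarboxylating S-adenosylmethionine, Srm makes spermidine and Sms makes spermine. Sat1 acetylates spermidine and spermine, Paox oxidizes the acetylated forms, and Smox oxidizes spermine directly.

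These 10 genes, chosen by gene symbol as a pathway after the genotype values of these libraries had been seen, were followed through RNA-seq of sorted mouse bone marrow cells. Of the 10, 9 matched a row among the 29955 genes listed, 8 were above 0 in at least 1 library, and 7 stood above 3 reads in every library. The cells were Lin- Sca1+ Kit+ (LSK) hematopoietic stem and progenitor cells and Lin- Sca1- Kit+ (LK) progenitors. Each population came from wild-type (WT) and Ripk3-/- animals of the strain the labels spell CD57BL6/J, with 2 libraries in each of the 4 groups. Ripk3-/- is a germline loss of the kinase Ripk3, a mediator of necroptosis, so that every cell of the animal lacks it. The labels describe RNA taken from untreated cells, whereas the study's text describes marrow of mice that had received repeated low-dose X-rays, in both genotypes. The age of the animals at harvest was not used here.

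Values are given as signal, the deposited unit. It is the number of reads on a gene multiplied by 1 scaling factor per library, with no division by gene length, so that signal compares libraries for 1 gene and not genes with each other. The libraries held between 9782166 and 16280811 recovered reads, and 1 read was worth 0.0621 to 0.104 signal. LSK and LK libraries had been scaled separately. Tests of LSK against LK and levels per kilobase therefore used CPM, the read count as a share of the library's reads, under 1 scaling of all 8 libraries. The marker sums below are in signal, so that those of LSK and LK stand on separate scales.

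Several facts of the whole series bear on the values below. Ripk3 itself measured 162 and 168 signal in WT LSK, 3.38 and 1.08 in Ripk3-/- LSK, 144 and 150 in WT LK, and 16.2 and 10.6 in Ripk3-/- LK. The labelled populations carried their markers, since the summed signal of 8 LSK markers was 1522 to 1681 in WT LSK, 2199 to 2314 in Ripk3-/- LSK, 181 to 195 in WT LK and 223 in both Ripk3-/- LK libraries, with no overlap of the genotypes. Of these 8, Flt3 (473 to 555 in WT LSK and 874 to 886 in Ripk3-/- LSK) was called higher in Ripk3-/- LSK. Ly6a, which encodes the sort marker Sca1, was at 0.124 to 4.12 in LK. Xist was at 108 to 413 signal in WT libraries and at 0 to 1.27 in Ripk3-/- libraries, while the Y-linked Eif2s3y was at 0 in all WT libraries and at 47.0 to 98.8 in Ripk3-/- libraries. Uty (16.8 to 31.6 in Ripk3-/-) and Kdm5d (0.124 to 4.89) were likewise at 0 in WT, and Ddx3y was listed at 0 throughout. Sex and genotype therefore cannot be told apart in any Ripk3-/- against WT value. The summed signal of 8 mature neutrophil markers was 704 to 769 in WT LSK, 2339 to 2766 in Ripk3-/- LSK, 774 to 781 in WT LK and 1679 to 1683 in Ripk3-/- LK, with none of the 8 at 0 in any library. Of these 8 markers, 7 were called higher in Ripk3-/- LSK and 5 in Ripk3-/- LK, where 0.892% and 0.1% of all genes tested were. The part of these shifts in the differences below was not tested.

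The other marker lists are given by their sums and by the members called by genotype. The B cell sum lay between 45.6 and 97.3 signal, the T cell sum between 11.1 and 109, and the erythroid sum between 17.1 and 38.6 over all 8 libraries. The monocyte or macrophage sum was 332 to 430 in LSK and 1838 to 2089 in LK. Immediate-early genes, which are induced by handling as well as by signaling, summed to 20298 to 24573 in LSK and 7734 to 9520 in LK. The sum of 8 LK markers was 7773 to 8733 in WT LSK, 5599 to 7178 in Ripk3-/- LSK, 64273 to 73028 in WT LK and 50130 to 65781 in Ripk3-/- LK, and that of Kit and Cd34 was 1176 to 1263, 1416 to 1897, 747 to 800 and 811 to 818 in the same order. Called lower in Ripk3-/- were Gata1 in LSK (38.0 to 57.4 signal in WT and 14.7 to 22.2 in Ripk3-/-), Junb in LK (689 to 845 and 346 to 493) and Atf3 in LSK (528 to 557 and 185 to 236) and LK (205 to 242 and 87.3 to 110). Of all genes tested, 1.27% were called lower in Ripk3-/- LSK and 0.373% in Ripk3-/- LK. No B cell, T cell, erythroid or monocyte marker was called by genotype, where 2.16% of all genes were in LSK and 0.473% in LK. The part of these marker lists in the differences below was not tested. In bulk RNA a smaller number of cells of a type and less RNA per cell cannot be told apart.

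Odc1 (ENSMUSG00000011179.8, GRCm38 chromosome 12, 17544794 to 17551505, plus strand) was called by genotype in both populations, and Sat1 (ENSMUSG00000025283.15, chromosome X, 155213132 to 155216449, minus strand) was the only other member called by genotype. Their upstream sequences are shown because these are the synthetic and the catabolic control points that differed. The bases are from the RefSeq promoter table for GRCm38.p6, printed 5′ to 3′ in the direction of the gene and only as far as the gene's start in GENCODE M21, and capitals mark the GC box GGGCGG on either strand. They cover chr12:17544623-17544793 for Odc1 and chrX:155216450-155216699 for Sat1.
Odc1: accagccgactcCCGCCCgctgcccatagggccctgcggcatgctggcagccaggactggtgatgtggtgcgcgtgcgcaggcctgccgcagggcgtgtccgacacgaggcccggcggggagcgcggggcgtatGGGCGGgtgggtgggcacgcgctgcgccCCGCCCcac
Sat1: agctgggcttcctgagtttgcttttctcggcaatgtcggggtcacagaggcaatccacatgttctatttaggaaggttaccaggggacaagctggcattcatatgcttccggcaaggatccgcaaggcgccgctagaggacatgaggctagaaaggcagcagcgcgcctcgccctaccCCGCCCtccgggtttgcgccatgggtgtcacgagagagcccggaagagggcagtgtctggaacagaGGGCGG
The 250 bases before the RefSeq start of Odc1 were 80.0% G or C and held 4 GC boxes, at 238, 116, 88 and 15 bases before the start, of which the last lies past the printed stretch. Those of Sat1 were 59.6% G or C and held 2, at 72 and 6 bases before the start. A GC box stood in 32.7% of 32851 promoters of that length. GC boxes were not limited to the members called by genotype. Smox had 6, while Paox had 1 or 3 and Sms 4 or 0, depending on the RefSeq start. The E-box CACGTG (6.02% of promoters), the cyclic AMP response element TGACGTCA (1.55%) and the TATA box TATAAA (12.4%), searched on both strands, were not among the letters of the Odc1 or the Sat1 window.

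In WT LSK cells Odc1 measured 568 and 543 signal, and in Ripk3-/- LSK cells 219 and 188. In WT LK cells it measured 542 and 517, and in Ripk3-/- LK cells 263 and 294. All 4 WT libraries stood above all 4 Ripk3-/- libraries. These values rest on 1920 to 7977 reads per library.

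In LSK cells Odc1 was 2.73-fold lower in Ripk3-/- than in WT, a log2 fold change of -1.45 ± 0.16 (SE, n = 2 per group, 95% interval -1.79 to -1.11). Its adjusted p from limma was 1.3e-05, the 22nd smallest unadjusted p of 16817 genes tested. In LK cells it was 1.90-fold lower, with a log2 fold change of -0.93 ± 0.16 (95% interval -1.27 to -0.59) and a limma adjusted p of 0.00592, the 27th of 13949 genes. Because the members were chosen with these genotype values known, their genotype p-values and ranks are descriptions and no independent test. The fold was numerically larger in LSK, and the genotype effect in LSK less that in LK was -0.52 (95% interval -1.003 to -0.04), with an unadjusted p of 0.0341 and a limma adjusted p of 0.453. A difference between the populations was thus not called. The LSK call was lost when the variance trend was left out of limma (adjusted p = 0.0639). The LK call was also lost there (0.574), with no filter on low values (0.120), without WT LK 1 (0.197) and without Ripk3-/- LK 1 (0.213), all adjusted p from limma, while the log2 fold change stayed between -1.01 and -0.84 in LK under every library left out.

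**Figure D1:**
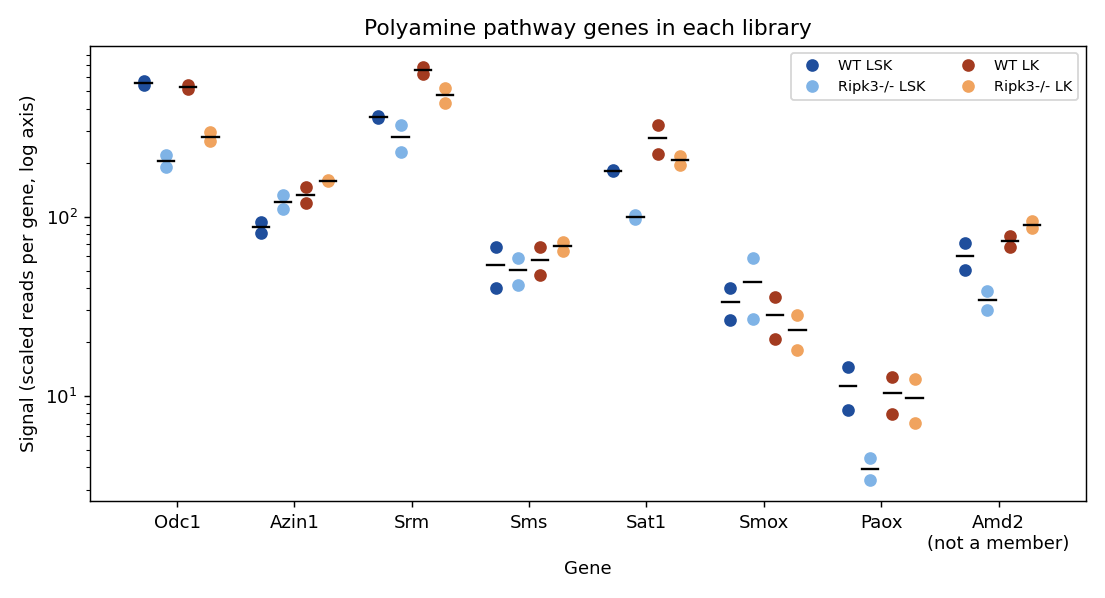
Signal (scaled reads per gene, log axis) of the 7 members above 3 reads in every library and of Amd2, with 1 point per library, colors for the 4 groups and black bars for group means. For Odc1 the 4 Ripk3-/- libraries lie between 188 and 294 and the 4 WT libraries between 517 and 568.

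Odc1 shares sequence with 14 annotated copies, of at least 90% identity over at least 200 bases, nearly all processed pseudogenes. Reads from such copies can be split or lost, depending on how multiply mapped reads were counted. Of the 14, 2 had a row. The pseudogene Gm15645 stayed at or below 0.414 signal. AW146154, which aligned over 921 bases at 92.1% identity to the opposite strand of Odc1, measured 18.5 and 7.77 signal in WT LSK, 32.6 and 48.6 in Ripk3-/- LSK, 3.46 and 10.4 in WT LK, and 9.07 and 19.9 in Ripk3-/- LK. The other 12 copies had no row, and their part in the Odc1 values was not tested.

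The antizymes could not be followed. Oaz2 was listed at 0 in all 8 libraries, and Oaz1 was listed at 0 in 7 and at 0.241 signal, or 3 reads, in Ripk3-/- LSK 1. A listed 0 can be a failed estimate, so it is given as such and says nothing about expression. The annotated pseudogene Oaz2-ps, 98.7% identical to Oaz2 over 471 bases, had 0.254 to 4.79 signal.

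Azin1, the member that frees Odc1 from antizyme, went the other way in both populations. It measured 81.3 and 93.2 signal in WT LSK and 110 and 132 in Ripk3-/- LSK, and 146 and 119 in WT LK and 157 and 160 in Ripk3-/- LK. The genotypes did not overlap in either population, but neither difference was called, with log2 fold changes of 0.46 (95% interval 0.03 to 0.90, limma adjusted p = 0.253) in LSK and 0.27 (-0.16 to 0.70, limma adjusted p = 0.9001) in LK.

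Among the synthases, Srm measured 353 and 362 signal in WT LSK, 325 and 229 in Ripk3-/- LSK, 685 and 620 in WT LK, and 427 and 519 in Ripk3-/- LK. It was lower in Ripk3-/- in both populations without overlap, by -0.39 (limma adjusted p = 0.256) and -0.47 (limma adjusted p = 0.526) on the log2 scale, and was called in neither. Sms measured 68.0 and 39.9 signal in WT LSK, 41.5 and 58.7 in Ripk3-/- LSK, 67.7 and 47.0 in WT LK, and 63.9 and 72.3 in Ripk3-/- LK. Its genotypes overlapped in both populations, and its intervals of -0.70 to 0.54 in LSK and -0.35 to 0.88 in LK leave room for a change in either direction. Sms has 7 annotated copies of at least 90% identity over at least 200 bases, and like Sat1 it lies on the X chromosome.

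Amd1 matched no row. Its relative Amd2, whose transcript is 99.6% identical to that of Amd1 over 3202 bases, had a row, and reads of both genes may stand in it. Amd2 measured 50.4 and 70.8 signal in WT LSK and 29.98 and 38.5 in Ripk3-/- LSK, but 67.7 and 78.3 in WT LK and 94.0 and 85.9 in Ripk3-/- LK. The genotypes did not overlap in either population and stood in opposite order. The log2 fold changes were -0.80 (limma adjusted p = 0.118) in LSK and 0.30 (limma adjusted p = 0.909) in LK. Their difference of -1.10 (95% interval -1.87 to -0.32) had an unadjusted p of 0.00750 and a limma adjusted p of 0.296, so that it was not called over all 15901 genes. By DESeq2 the LSK genotype value of Amd2 was -0.85 and was called (DESeq2 adjusted p = 0.0441).

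On the catabolic side, Sat1 measured 180 and 181 signal in WT LSK and 96.9 and 102 in Ripk3-/- LSK, and 325 and 223 in WT LK and 218 and 194 in Ripk3-/- LK. The genotypes did not overlap in either population. In LSK the log2 fold change was -0.86 ± 0.20 (SE; 1.81-fold, limma adjusted p = 0.0267), and in LK it was -0.39 (95% interval -0.80 to 0.03, limma adjusted p = 0.794). The LSK call stood near the threshold: leaving out any 1 of the 4 LSK libraries or of the 2 Ripk3-/- LK libraries gave adjusted p of 0.0552 to 0.127 from limma, and it was also lost with no filter (0.0777), without the variance trend (0.202) and with LSK fitted alone (0.0728). Sat1 is X-linked and the WT libraries carried Xist.

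Of the oxidases, Paox measured 8.34 and 14.5 signal in WT LSK and 3.38 and 4.50 in Ripk3-/- LSK, from 42 to 140 reads, and 12.8 and 7.94 in WT LK and 7.10 and 12.4 in Ripk3-/- LK. Its log2 fold change in LSK was -1.29 with an interval of -2.41 to -0.18 and was not called (limma adjusted p = 0.209). Smox measured 26.5 and 39.99 signal in WT LSK, 58.9 and 27.0 in Ripk3-/- LSK, 20.7 and 35.5 in WT LK, and 18.0 and 28.3 in Ripk3-/- LK. The Smox genotypes overlapped in both populations, and its intervals reached from -0.54 to 1.11 and from -1.08 to 0.57. Paox shares stretches of at least 200 bases at 90% identity or more with 36 other annotated transcripts, among them the pseudogene Gm19680 (99.9% over 1358 bases), and overlaps Echs1 on the other strand.

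Counted together, 2 of the 7 tested members, Odc1 and Sat1, were called lower in Ripk3-/- LSK and none higher, where 1.27% of all genes tested were called lower, 0.892% higher and 2.16% in either direction. In LK 1 of 7, Odc1, was called lower, where 0.373% of genes were called lower, 0.1% higher and 0.473% in either direction. In LSK 4 of 7 members were lower without overlap, where 23.2% of all genes were, and in LK 3 of 7, where 19.9% were. In each population 1 of 7, Azin1, was higher without overlap, where 21.4% of genes were in LSK and 20.1% in LK. The median log2 fold change of the 7 was -0.39 in LSK against -0.01 over all genes tested, and -0.25 in LK against 0.01. The pathway was proposed with results of these libraries known, so nothing is read from these counts. No member was called for a genotype effect that differed between the populations, where 0.358% of 15901 genes were. Odc1 was the only 1 of the 7 members with an unadjusted limma p under 0.05 there, as 1613 of the 15901 genes had.

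**Figure D2:**
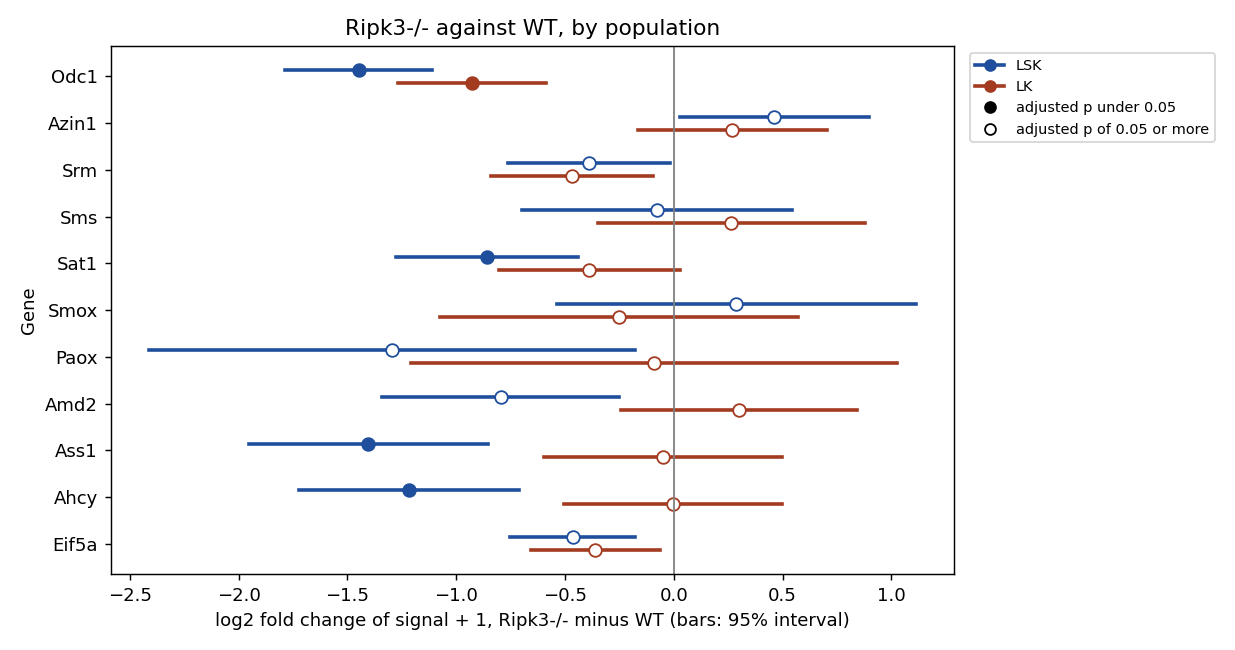
Log2 fold change of signal + 1, Ripk3-/- minus WT, in LSK (blue) and LK (red), with 95% intervals from limma and filled points where the adjusted p was under 0.05. Odc1 lies left of 0 in both populations, at -1.45 and -0.93, while Ass1 and Ahcy have filled points left of 0 in LSK and open ones in LK, at -0.05 and -0.0046.

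The 3 ratios of members within 1 library do not depend on library scaling. Odc1 reads per Azin1 read were 6.99 and 5.82 in WT LSK, 1.996 and 1.42 in Ripk3-/- LSK, 3.72 and 4.36 in WT LK, and 1.68 and 1.84 in Ripk3-/- LK. Every WT library stood above every Ripk3-/- library, with a mean difference of -1.56 on the log2 scale, or 2.95-fold. The two-sided exact permutation test of 4 against 4 libraries gave p = 0.0286, the smallest it can give, and 0.171 after Benjamini-Hochberg adjustment over the 6 ratio tests. Shuffled within LSK and LK only, the exact permutation p was 0.0556, again the smallest possible. The ratio uses the same Odc1 values as above, so it is no separate evidence. The LSK minus LK difference of this ratio was 0.30 (exact permutation p = 0.600), and it turned to -0.06 without WT LSK 1.

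Srm reads per Sms read ranged from 3.9 in Ripk3-/- LSK 2 to 13.2 in WT LK 2. The ratio differed by -0.53 log2 between genotypes (exact permutation p = 0.229, adjusted 0.274) and by -0.54 between LSK and LK (exact permutation p = 0.200, adjusted 0.274). Sat1 reads per Odc1 read were 0.316 and 0.334 in WT LSK, 0.442 and 0.541 in Ripk3-/- LSK, 0.599 and 0.431 in WT LK, and 0.828 and 0.658 in Ripk3-/- LK. Within each population the Ripk3-/- libraries stood above the WT libraries. Over all libraries the difference was 0.56 log2 (exact permutation p = 0.114, adjusted 0.229). The LSK minus LK difference was -0.62 log2 (exact permutation p = 0.0857, adjusted 0.229). Shuffled within the other factor only, each of these Sat1 per Odc1 differences had an exact permutation p of 0.0556, the smallest possible. This ratio also uses the Odc1 and Sat1 values above, so it is no separate evidence.

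**Figure D3:**
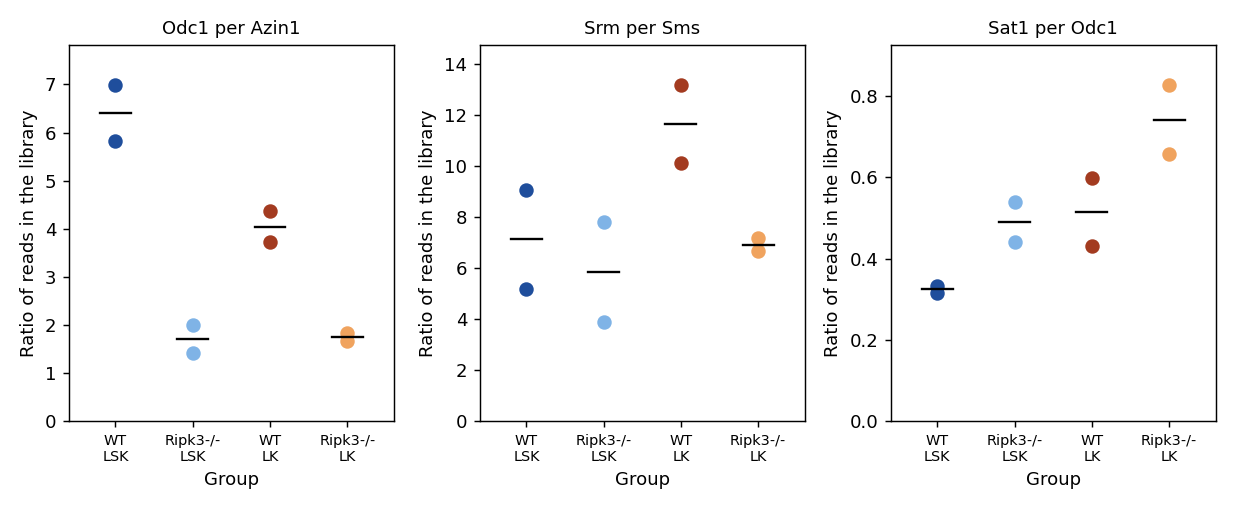
Ratio of reads of 2 members in each library for Odc1 per Azin1, Srm per Sms and Sat1 per Odc1, with 1 point per library, bars for group means and linear axes from 0. Odc1 per Azin1 lies between 3.72 and 6.99 in WT libraries and between 1.42 and 1.996 in Ripk3-/- libraries.

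Between the populations, every member that was called was lower in LSK than in the more committed LK cells. In WT, 3 of the 7 tested members were called lower in LSK and none higher, where 14.9% of all genes were called lower, 8.98% higher and 23.9% in either direction. Without overlap 4 members were lower, where 31.7% of all genes were, and none higher, where 32.1% were. Srm had 310 and 318 CPM in WT LSK and 781 and 700 in WT LK, a log2 fold change of -1.23 ± 0.18 (SE; limma adjusted p = 4.2e-05). Azin1 had 71.4 and 81.8 CPM in WT LSK against 166 and 134 in WT LK (-0.95, limma adjusted p = 0.00237). Sat1 had 158 and 159 CPM in WT LSK against 370 and 251 in WT LK (-0.94, limma adjusted p = 0.00193). For these 3 genes the groups did not overlap. Without WT LK 1 the calls of Azin1 (limma adjusted p = 0.0591) and Sat1 (0.0861) were lost, as they were without the variance trend (0.0570 and 0.0682). With the values as deposited, Azin1 had -0.59 (limma adjusted p = 0.0504).

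Odc1 was not called between the WT populations, although its libraries did not overlap, with 499 and 476 CPM in LSK and 618 and 583 in LK (-0.30, 95% interval -0.65 to 0.05, limma adjusted p = 0.194). With the values as deposited, under separate scaling, this difference had the other sign (0.07). In Ripk3-/- cells Odc1 had 194 and 164 CPM in LSK and 299 and 337 in LK, and the difference of -0.83 ± 0.17 (SE) was called (limma adjusted p = 0.00109). Under separate scaling the latter was -0.45 and not called (limma adjusted p = 0.0583), and it was also lost without the variance trend (0.0869). That Odc1 was called in 1 genotype and not in the other is the same unresolved contrast as above, whose adjusted p was 0.453 from limma.

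In Ripk3-/- cells 4 of the 7 members were called lower in LSK and none higher, where 11.7% of all genes were called lower, 7.56% higher and 19.3% in either direction. Without overlap 6 members were lower, where 29.6% of all genes were. Besides Odc1 these were Sat1 (-1.41, limma adjusted p = 2.6e-05), Srm (-1.16, limma adjusted p = 7.6e-05) and Azin1 (-0.77, limma adjusted p = 0.0125). The Azin1 call was lost without Ripk3-/- LSK 1, Ripk3-/- LK 1 or Ripk3-/- LK 2 (limma adjusted p of 0.0722 to 0.109), without the variance trend (0.116) and with the values as deposited (-0.40, limma adjusted p = 0.207). The Srm call was lost without the trend (0.0530). Amd2 was also called lower (-1.74, limma adjusted p = 4.5e-05), with 26.6 and 33.7 CPM in LSK and 107 and 98.4 in LK. Sms (-0.82, limma adjusted p = 0.0561) and Paox (-1.40, limma adjusted p = 0.0734) missed the threshold, and Smox had 0.43 with an interval of -0.39 to 1.25. When median centred, Sms (limma adjusted p = 0.0136) and Paox (limma adjusted p = 0.0334) were called. Sms was also called with the filter at a mean of 5 (limma adjusted p = 0.0449), and Paox by DESeq2 (DESeq2 adjusted p = 0.0470). The median of the 7 members was -0.48 in WT and -0.83 in Ripk3-/-, against 0.05 and -0.0031 over all genes tested. Centring every library on its median would move these Ripk3-/- values by -0.20, the WT values by -0.09, and the genotype values by -0.11 in LSK and -0.03 in LK.

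**Figure D4:**
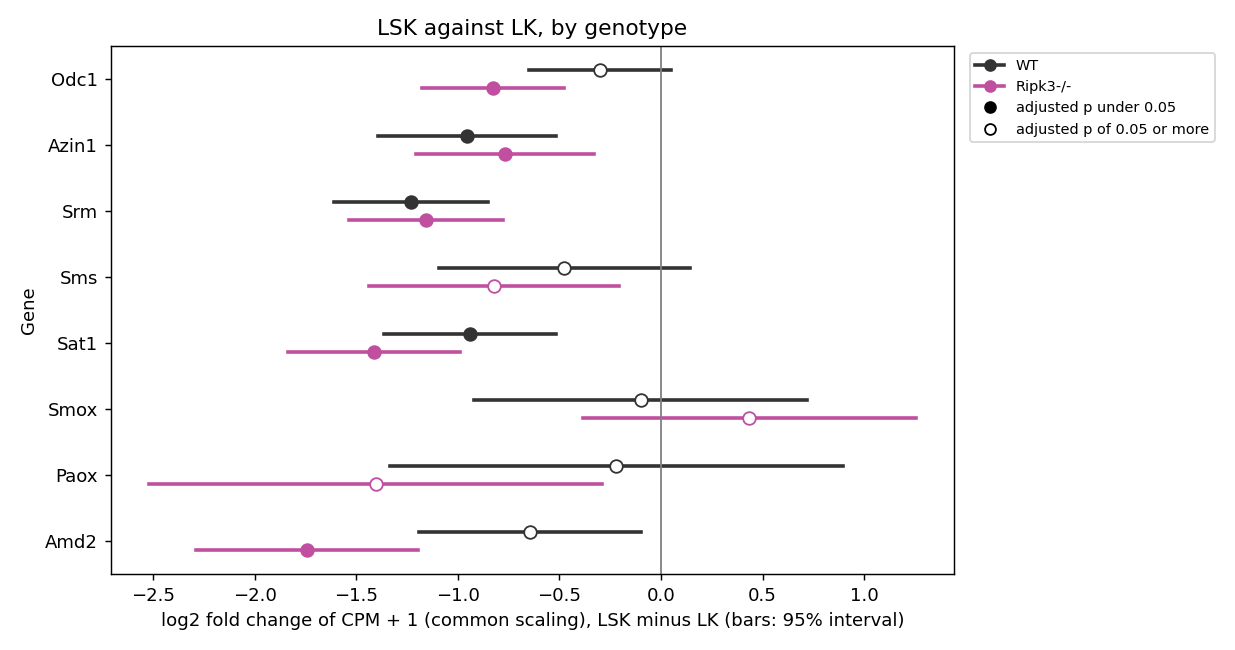
Log2 fold change of CPM + 1 under 1 scaling of all libraries, LSK minus LK, in WT (grey) and Ripk3-/- (magenta) cells, with 95% intervals from limma and filled points where the adjusted p was under 0.05. Srm, Azin1 and Sat1 lie left of 0 with filled points in both genotypes, while Odc1 has a filled point in Ripk3-/- (-0.83) and an open one in WT (-0.30).

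Per kilobase of merged exons, the members kept a wide spread of levels. In WT LSK, Srm had 196 ± 3.6 CPM per kilobase (SD, n = 2), Odc1 143 ± 4.7, Sat1 57.1 ± 0.32, Azin1 12.2 ± 1.2, Sms 7.88 ± 2.9, Smox 7.49 ± 2.1 and Paox 2.04 ± 0.78. Sms and Smox did not differ beyond their spread there. In Ripk3-/- LSK, Srm had 153 ± 39, Odc1 52.6 ± 6.2, Sat1 31.5 ± 0.76 and Azin1 17.0 ± 2.1 CPM per kilobase, followed by Smox with 9.74 ± 5.2, Sms with 7.33 ± 1.7 and Paox with 0.706 ± 0.14. In WT LK, Srm had 463 ± 36, Odc1 176 ± 7.1 and Sat1 112 ± 30. In Ripk3-/- LK, Srm had 338 ± 48, Odc1 93.4 ± 8.0 and Sat1 84.5 ± 6.5, and the libraries of the last 2 overlapped, at 87.7 to 99.0 for Odc1 and 79.9 to 89.1 for Sat1. In all 4 groups Srm was highest and Paox lowest by mean level per kilobase.

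The genes that feed the pathway held 2 that were called by genotype. Ass1, argininosuccinate synthase of the arginine route, measured 71.1 and 78.8 signal in WT LSK and 34.3 and 22.3 in Ripk3-/- LSK, against 82.6 and 112 in WT LK and 93.5 and 92.2 in Ripk3-/- LK. It was 2.64-fold lower in Ripk3-/- LSK (log2 -1.40 ± 0.26 SE, limma adjusted p = 0.00467) and had -0.05 in LK, with an interval of -0.59 to 0.50. Ahcy, which removes the S-adenosylhomocysteine left by methylation, measured 79.2 and 102 signal in WT LSK and 36.2 and 40.1 in Ripk3-/- LSK, against 91.7 and 119 in WT LK and 94.99 and 114 in Ripk3-/- LK. It was 2.33-fold lower in Ripk3-/- LSK (log2 -1.22 ± 0.24 SE, limma adjusted p = 0.00819). The genotype effect in LSK less that in LK was -1.35 for Ass1 (limma adjusted p = 0.184) and -1.21 for Ahcy (limma adjusted p = 0.2001), and neither difference was called.

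Ass1 was 1 of 8 tested genes of ornithine and arginine supply, and Ahcy 1 of 13 of the methionine cycle and salvage. Over all genes tested in LSK, 2.16% were called by genotype in either direction. No gene of either list was called by genotype in LK, where 0.473% of all genes tested were. Arg1, the arginase that makes ornithine, was low everywhere (log2 0.11 in LSK, limma adjusted p = 0.954), Arg2 did not reach the minimum level, and Mtap, which salvages the by-product of spermidine and spermine synthesis, had 0.26 in LSK (limma adjusted p = 0.573). Between the populations, Oat, Asl and Aldh18a1 were called lower in WT LSK than in WT LK, and Oat (-1.06, limma adjusted p = 0.000356), Ass1 (-2.07, limma adjusted p = 5.5e-06) and Aldh18a1 (-0.93, limma adjusted p = 0.0111) in Ripk3-/-. Of the methionine genes, Mat2a (-0.81, limma adjusted p = 0.00149), Mtr (-1.52, limma adjusted p = 0.000355) and Enoph1 (-1.35, limma adjusted p = 0.000254) were called lower in WT LSK, and Mat2a, Ahcy and Mtr in Ripk3-/- LSK. In each genotype these were 3 of 8 supply genes and 3 of 13 methionine genes, with none called higher. Over all genes tested, 14.9% were called lower in WT LSK and 11.7% in Ripk3-/- LSK.

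Spermidine is also the donor for hypusine, a modified lysine found in the translation factor eIF5A. Eif5a measured 2639 and 2905 signal in WT LSK, 2155 and 1866 in Ripk3-/- LSK, 3953 and 3502 in WT LK, and 2667 and 3151 in Ripk3-/- LK. The genotypes did not overlap, but the log2 fold changes of -0.47 (limma adjusted p = 0.0830) and -0.36 (limma adjusted p = 0.569) were not called. Eif5a was called lower in LSK than in LK in WT (-0.80, limma adjusted p = 0.000386) and in Ripk3-/- (-0.91, limma adjusted p = 8.9e-05). So was Dohh, the second enzyme of hypusine synthesis (-0.74 and -0.72, limma adjusted p = 0.0272 and 0.0370). Dhps, the first enzyme, was not called in any contrast. Between LSK and LK, 2 of the 4 tested genes of this list were called lower in each genotype. Of all genes tested, 14.9% were called lower in WT LSK and 11.7% in Ripk3-/- LSK. None of the 4 was called by genotype, where 2.16% of all genes tested were in LSK and 0.473% in LK.

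Myc is a known activator of Odc1 and Srm transcription. It measured 293 and 309 signal in WT LSK, 427 and 315 in Ripk3-/- LSK, 317 and 273 in WT LK, and 374 and 434 in Ripk3-/- LK. The Ripk3-/- libraries stood above the WT libraries in both populations, with log2 fold changes of 0.28 (limma adjusted p = 0.422) and 0.45 (limma adjusted p = 0.550), and neither was called. None of the 13 genes of the MYC network was called by genotype, where 2.16% of all genes tested were in LSK and 0.473% in LK. Mycn was called higher in LSK in both genotypes (1.84 in WT, limma adjusted p = 0.00223, and 2.64 in Ripk3-/-, limma adjusted p = 5.4e-05) and Mlx lower (-1.09 and -1.01), while Mxi1 was called lower in WT and Mlxip higher in Ripk3-/-. By count, 1 of the 13 was higher and 2 lower in WT, and 2 were higher and 1 lower in Ripk3-/-. Of all genes tested, 8.98% were called higher and 14.9% lower in WT, and 7.56% and 11.7% in Ripk3-/-.

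Of the transport genes, none of 10 tested in LSK and none of 8 in LK was called by genotype, where 2.16% and 0.473% of all genes tested were. Gpc1, a glypican that carries polyamines into cells, was called lower in LSK than in LK in both genotypes (-3.12 in WT, limma adjusted p = 1.6e-08, and -2.72 in Ripk3-/-), and Slc22a3, an organic cation transporter, was called higher (0.79, limma adjusted p = 0.0229, and 0.70, limma adjusted p = 0.0491). In each genotype this was 1 lower and 1 higher of 8 transport genes tested. Of all genes tested, 14.9% were called lower and 8.98% higher in WT LSK, and 11.7% and 7.56% in Ripk3-/- LSK. Among the 4 tested paralogs of the members, Amd2 alone was called, in LSK against LK of Ripk3-/- cells. In WT cells Amd2 had -0.65 (limma adjusted p = 0.0766), and it was called there when median centred (limma adjusted p = 0.0431).

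The genes whose pattern was most like that of Odc1 over the 8 libraries, among 9103 genes with a mean of at least 10 CPM, were Esd (Pearson r = 0.989), Ripk3 (0.979), Usp2 (0.971), Ufc1 (0.965) and Hist1h2bj (0.959). The libraries fall into the 2 genotypes, which carry the correlation, so it is given as a description with no p. Esd, an esterase, measured 203 and 181 signal in WT LSK, 125 and 115 in Ripk3-/- LSK, 181 and 167 in WT LK, and 118 and 129 in Ripk3-/- LK. Like Odc1, it stood higher in every WT library than in every Ripk3-/- library. Ufc1, the conjugating enzyme of the ufmylation pathway, ranged over only 75.5 to 111 signal in all libraries.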

How the data were processed

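RNA of sorted LSK and LK cells from WT and Ripk3-/- mice was sequenced from stranded poly(A) libraries, 2 per group and 8 in all. The submitters' processing notes name TopHat and mm9. The counting tool and annotation are not given in the sources used here. The authors deposited 1 value per gene and library under an FPKM heading, but every value above 0 was a whole multiple (within 0.01) of 1 step per library, so the deposited values were treated as signal, meaning reads times a library factor. The factors differed between LSK and LK.

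limma 3.58.1 (R 4.3.3) was fitted with a variance trend to log2(signal + 1) of all 8 libraries as 4 group means, on genes with a mean of at least 1, with Benjamini-Hochberg adjustment over all genes tested and a threshold of 0.05. LSK was compared with LK on log2(CPM + 1) after 1 TMM scaling (edgeR 4.0.16) of the recovered reads. A fold change on these scales understates that of low genes. Ratios of members used two-sided exact permutation tests. The planned ratio of Odc1 to Oaz1 was not run because Oaz1 was listed at 0. The script was tested on simulated data first. DESeq2 1.42.0 and edgeR on recovered reads were alternatives. Intervals cover the spread between these libraries, and no source says whether replicates are separate mice, so p-values may measure technical spread.

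Named were all members, listed genes past the threshold (up to 6 per list and comparison), Myc, Eif5a, Dhps, Dohh, Arg1, Arg2, Mtap, Amd2, Ripk3, 5 sex-linked genes and the 5 genes most like Odc1. Members and lists were chosen with earlier results of these data known. Positions, exon lengths and copies are from GENCODE M21 (GRCm38), and promoters from RefSeq. No protein sequence was used here.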

Additional observations from a re-analysis of the deposited data

Results flagged for a closer look

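Ripk3, the targeted gene, was the only listed gene outside the marker lists whose genotype effect was called different between the populations. Of the 8 mature neutrophil markers, S100a8 was also called, with a higher genotype effect in LSK. The log2 fold change of Ripk3 was -5.78 in LSK and -3.39 in LK. The difference of -2.40 ± 0.51 (SE) had an adjusted p of 0.0343 from limma. In Ripk3-/- cells its signal was 3.38 and 1.08 in LSK and 16.2 and 10.6 in LK. The difference was no longer called without any 1 of 7 of the 8 libraries, nor with a pseudocount of 0.1, without a filter or without the variance trend. With 2 libraries in a group, no group was large enough to examine single libraries as outliers.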

How the results depend on the processing

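Counts of calls moved with the filter, the model and the libraries used. Genes called by genotype in LSK (363) became 198 with no filter, 120 without the trend, 195 with LSK fitted alone, 237 by edgeR and 611 by DESeq2, and members called (2) became 1 with no filter, 0 without the trend and 1 with LSK alone. In LK the 66 genes became 9 with no filter, 3 without the trend, 125 with LK alone and 166 by DESeq2, and the member count of 1 became 0 with no filter and 0 without the trend. Genes with a different genotype effect (57) became 3, 2 and 151 with no filter, without the trend and by DESeq2. In WT the 3769 genes that differed between LSK and LK became 2448 with no filter and 1900 without the trend, and the 3 members became 1 without the trend. In Ripk3-/- the 3036 genes became 1935 and 1353, and the 4 members became 1 without the trend and 2 with the values as deposited. Over all settings other than left-out libraries, the members called there ranged from 1 to 6. The Odc1 per Azin1 difference of -1.56 was no longer under 0.05 (exact permutation p = 0.0556) when shuffled within populations. The cause of these shifts was not tested.

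The sign turned for Srm in the difference of genotype effects when median centred (-0.032), and in WT LSK against LK with the values as deposited for Odc1 (0.069), Smox (0.26), Paox (0.12) and Ripk3 (0.17), none of them called. Over left-out libraries, genes called ranged from 99 (without WT LSK 2) to 262 (LSK genotype), 13 (without Ripk3-/- LK 1) to 101 (LK genotype), 17 (without WT LSK 2) to 90 (difference), 1616 (without WT LK 1) to 4179 (WT LSK against LK) and 1449 (without Ripk3-/- LK 2) to 3165 (Ripk3-/-), and members called from 1 to 2, 0 to 1, 0 to 0, 1 to 3 and 3 to 5. The uncalled values that turned were Sms (-0.46 to 0.30) and Smox (-0.26 to 0.84) in the LSK genotype effect, and Smox (-0.63 to 0.12) and Paox (-0.45 to 0.27) in LK. In the difference they were Srm (-0.17 to 0.33), Sms (-0.72 to 0.035) and Smox (-0.011 to 1.09). Between LSK and LK they were Smox (-0.47 to 0.27) and Paox (-0.60 to 0.14) in WT, Smox (-0.089 to 1.07) in Ripk3-/-, and Odc1 per Azin1 (-0.061 to 0.70). The other ratio ranges kept their sign.

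Libraries with the same replicate number did not deviate together (r from -0.145 to 0.051). With 2 libraries per group, this cannot show whether LSK and LK libraries of the same number shared animals or handling. With the replicate number as a block, Odc1 kept its calls in LSK (adjusted p = 1.9e-05 from limma) and LK (0.01005), and 317 and 64 genes were called by genotype. Of the members, Paox rests on as few as 42 reads in a library. In general a 0 allows up to 3 reads, or 0.186 to 0.311 signal, counting error only. This bound is not applied to Oaz1 and Oaz2, whose listed 0 can be a failed estimate.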
